A study of Mus musculus with 64 samples.

Results

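The 9 genes described here are Egr1, Egr2, Egr3, Egr4, Nr4a1, Nr4a2, Nr4a3, Npas4 and Arc, taken by symbol from the 23420 genes counted in mouse striatum. They were chosen as genes known to be switched on by neuronal activity, with earlier results of these data known. All 9 had enough reads to be tested. The striatum came from 16 F2 mice bred from C57BL/6NJ and C57BL/6J, closely related substrains of the laboratory mouse. The N/N mice were homozygous for the mutant C57BL/6NJ allele at 1 selected locus, which the labels do not name, and were described by the submitters as binge-prone. The J/J mice were homozygous for the wild-type C57BL/6J allele and were described as binge-resistant. By their labels 5 females and 3 males made up each genotype (n = 8), although the series text gives 4 of each sex. Reads of Xist and of 4 Y-linked genes matched the labelled sex in 16 of 16 mice. All mice were 69 to 100 days old, and punches were taken on day 24 directly after 5 min on the elevated plus maze, a test of anxiety-like behaviour. Since all 16 mice had been on the maze, the values are levels after it and give no change relative to untested mice. The rest of the genome segregates in an F2 cross, so mice of 1 genotype at the selected locus differ at other loci.

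Neuronal firing and the calcium that enters with it activate kinases that switch on waiting transcription factors such as CREB and SRF, and these turn on immediate early genes without any new protein being made. Egr1 to Egr4 encode zinc finger transcription factors, Nr4a1 to Nr4a3 encode orphan nuclear receptors that work without a known natural hormone, and Npas4 encodes a neuron-specific transcription factor that responds to calcium entry. Arc differs from these in encoding a protein of the synapse, which promotes removal of AMPA-type glutamate receptors from the membrane. In the striatum several of these genes are widely used as readouts of recent activity in medium spiny neurons. Those neurons are the principal cells of the region and respond to cortical glutamate and to dopamine. Nr4a2 is not only such a readout, since it also marks neurons of the claustrum and deep cortex.

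Gene reads per mouse ran from 27405386 to 51334152, and the median N/N mouse had 31538235 and the median J/J mouse 31502380. Medium spiny neuron markers summed to between 5395 and 12418 reads per 1000000 gene reads (CPM) in single mice, and 14 of 15 markers were tested, Drd1 not being listed under that symbol. Cortical glutamatergic markers, 12 genes that striatal neurons express little, summed to between 510.5 and 1866 CPM, and 12 myelin genes to between 4728 and 8497 CPM. No marker gene stood at 0 reads in any genotype and sex group. Mice 10 (a J/J female) and 11 (an N/N female) had the same cage label, and no other mice shared one. Mouse 11 also had the lowest cortical marker level (mean log2 CPM of 4.22) and the highest choroid plexus level (1.71) of the 16 mice.

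Stretches upstream of the start are shown for 5 genes because the same short motifs recur in them. They come from RefSeq for GRCm38.p6 and run 5′ to 3′ on the gene's strand up to the base before an annotated start. Capitals mark the core site TGACG of the cyclic AMP response element, which CREB binds, on either strand (CGTCA on the other one), and in Egr2 also a CArG box, which SRF binds. The Egr2 stretch is chr10:67537619-67537868 (plus strand), that of Egr4 is chr6:85513590-85513839 (minus strand), that of Nr4a1 is chr15:101266596-101266845 (plus strand), that of Nr4a2 is chr2:57124004-57124253 (minus strand) and that of Nr4a3 is chr4:48045055-48045152 (plus strand).
Egr2: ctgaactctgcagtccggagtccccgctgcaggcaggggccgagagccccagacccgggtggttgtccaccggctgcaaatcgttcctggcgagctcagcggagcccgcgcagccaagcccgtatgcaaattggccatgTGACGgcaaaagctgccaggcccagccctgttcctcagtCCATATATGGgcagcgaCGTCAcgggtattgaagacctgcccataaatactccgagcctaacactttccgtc
Egr4: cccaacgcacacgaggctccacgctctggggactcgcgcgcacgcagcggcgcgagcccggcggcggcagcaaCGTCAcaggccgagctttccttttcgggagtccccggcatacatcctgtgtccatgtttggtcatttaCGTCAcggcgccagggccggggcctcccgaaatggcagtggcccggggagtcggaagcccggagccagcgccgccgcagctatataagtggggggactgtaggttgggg
Nr4a1: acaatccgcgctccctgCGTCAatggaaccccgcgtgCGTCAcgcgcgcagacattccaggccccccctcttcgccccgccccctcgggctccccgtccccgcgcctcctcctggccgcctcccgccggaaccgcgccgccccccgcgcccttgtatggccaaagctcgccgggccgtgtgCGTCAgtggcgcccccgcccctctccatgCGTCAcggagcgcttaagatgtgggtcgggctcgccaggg
Nr4a2: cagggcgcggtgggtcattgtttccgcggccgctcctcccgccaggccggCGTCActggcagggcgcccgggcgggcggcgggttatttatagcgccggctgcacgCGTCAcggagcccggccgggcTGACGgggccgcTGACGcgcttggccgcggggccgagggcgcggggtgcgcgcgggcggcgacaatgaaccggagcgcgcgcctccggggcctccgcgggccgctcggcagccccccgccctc
Nr4a3: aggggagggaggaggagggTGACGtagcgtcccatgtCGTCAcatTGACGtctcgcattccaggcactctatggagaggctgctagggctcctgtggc

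The 250 bases before the start held 4 core sites in each of the 3 Nr4a genes, 2 in Egr4 and 2 in Npas4. For Nr4a3 the stretch shown ends at 98 bases, where an exon of the gene begins in GENCODE M21, and holds 3 of the 4. For Npas4 all 250 bases lie in an exon of 1 annotated transcript and are not shown. Egr2 has 5 annotated starts, and 3 overlapping windows carried 2 core sites and 1 CArG box each. Of the other 2 Egr2 windows, which had no core site, 1 held a CArG box. Among 32851 mouse promoter windows of the same length 17.8% held at least 1 core site, 3.9% held 2 or more and 1.47% held a CArG box. The complete site TGACGTCA, which contains the core site on both strands and occurs in 1.55% of windows, was in none of the 10 windows of these genes. Neither was the Egr site GCGTGGGCG (0.536% of windows) nor the Nr4a site AAAGGTCA (1.34%), both searched on either strand. Egr1, Egr3 and Arc have no entry in that table. A match describes the letters of the window and says nothing about binding.

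Between genes, levels were compared as CPM per kilobase of exon, since longer transcripts collect more reads. Arc was highest at 76.2 ± 23.1 and Egr1 next at 58.2 ± 15.3 CPM per kb (SD, n = 16), and Arc exceeded Egr1 in 16 of 16 mice. Nr4a1 followed at 31.8 ± 10.04 CPM per kb. Nr4a2 (14.3 ± 4.11), Egr3 (12.97 ± 2.17) and Npas4 (12.7 ± 3.41 CPM per kb) did not separate: Nr4a2 was above Egr3 in 9 of 16 mice and Egr3 above Npas4 in 10 of 16. Egr4 stood at 10.4 ± 3.08, Egr2 at 4.48 ± 1.81 and Nr4a3 lowest at 0.976 ± 0.351 CPM per kb. Reads per mouse were 4881 to 13577 for Egr1 and 64 to 373 for Nr4a3, the least deeply covered of the set. Between the 4 runs of 1 mouse each of the 9 genes varied about as much as counting noise allows, with a chi-square per degree of freedom between 0.681 (Egr2) and 1.32 (Nr4a3, chi-square p = 0.0658). The runs read the same library again, so they cover counting error, and differences between mice, punches and library preparations cannot be told apart.

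All 9 genes varied widely from mouse to mouse. The coefficient of variation over the 16 mice was 40.4% for Egr2, 35.9% for Nr4a3, 31.6% for Nr4a1 and 30.4% for Arc, against a median of 9.53% over the 16113 genes tested. Egr4 had 29.6%, Nr4a2 28.7%, Npas4 26.8% and Egr1 26.4%. Egr3 was the steadiest at 16.7%. Among genes of similar mean level, within 0.5 on the log2 scale, 8 of the 9 stood at or above percentile 98.1 for this measure, and Egr3 at percentile 95.4. Among all genes tested Egr2 stood at percentile 96.6, Egr1 at 88.6 and Egr3 at 75.01. Egr2 spanned a 4.65-fold range between the lowest and the highest mouse and Nr4a3 a 4.27-fold range, against 1.95-fold for Egr3.

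**Figure D1:**
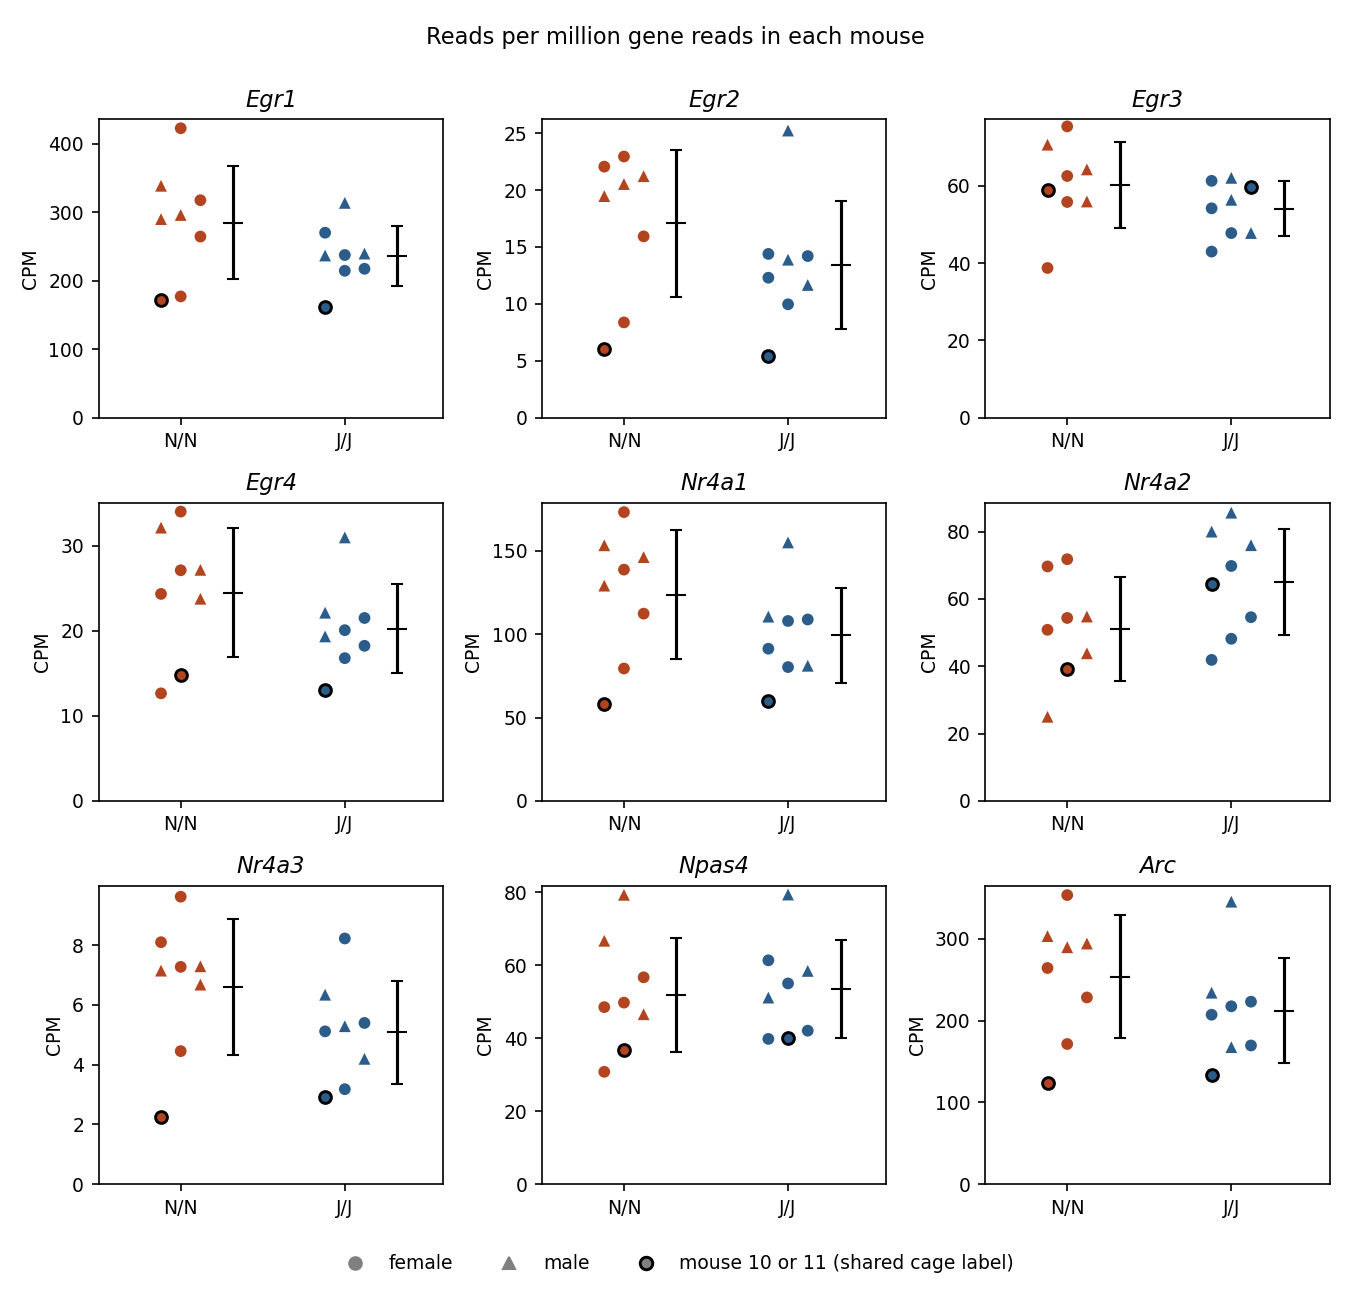
Level of each gene in CPM (y axis, from 0) in single N/N mice (left, red) and J/J mice (right, blue), with circles for females, triangles for males, a black rim for mice 10 and 11, and bars for the mean ± SD of each genotype (n = 8). The 2 genotypes overlap in all 9 panels, and mice 10 and 11 lie at the bottom of their groups for Egr1, Egr2, Nr4a1, Nr4a3 and Arc.

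Whether the genotype at the selected locus goes with a different level of these genes was asked with edgeR over all 16 mice, with sex as a term. No gene of the set passed an adjusted p of 0.05, and neither did any of the 16113 genes tested (0%). Of the 9, 7 had a positive log2 fold change for N/N over J/J and 2 a negative one, with a median of 0.27, against 50.9% positive and a median of 0.0017 over all genes tested. Most of the 9 varied together over the same mice, as given below. Their signs, here and within each sex, are therefore not 9 separate observations. None of the 9 had an unadjusted p below 0.05, against 6.8% of all genes (1095), and DESeq2 and limma-voom also called 0 of the 9 and 0 of all genes. In bulk tissue fewer cells of a type and less RNA per cell cannot be told apart, which holds for each value below. For N/N over J/J 14 of 14 medium spiny neuron markers and 12 of 12 myelin markers had positive log2 fold changes (medians 0.18 and 0.17) and 11 of 12 cortical markers negative ones (median -0.27). Within females 9 of 14 and 6 of 12 were positive (medians 0.035 and -0.016) and 7 of 12 cortical markers negative (median -0.033). Within males 14 of 14 and 12 of 12 were positive (medians 0.45 and 0.475) and 11 of 12 cortical markers negative (median -0.72). The pattern was thus seen in the males, at 3 mice a genotype. Over all mice, all 8 astrocyte and all 8 microglia markers also had positive values (medians 0.099 and 0.079). Of 6 choroid plexus genes tested 4 had positive values and 2 negative ones (median 0.37). The largest value was that of Ttr, with 5.32 ± 8.598 CPM in N/N and 0.746 ± 0.649 CPM in J/J mice (SD, n = 8 each). With the level of the cortical, medium spiny neuron or myelin list as a further term 0 of the 9 genes passed, but the values moved. With the cortical term the log2 fold change was 0.57 for Egr2, 0.58 for Nr4a3, 0.49 for Nr4a1, 0.43 for Arc and -0.18 for Nr4a2, and 4 of the 9 genes had an unadjusted p below 0.05. The share of all genes below that p in the same fit is not given here. The 6.8% above belongs to the fit without that term, so the count cannot be set against it. With the medium spiny neuron term the log2 fold change was 0.046 for Egr3, and with the myelin term, chosen after the data were seen, -0.16 for Nr4a2. The part of tissue makeup in these values was not tested further.

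The estimates also leaned on single mice. Without N/N female mouse 14, the highest mouse for most of the set, the log2 fold change was 0.14 for Egr1, 0.13 for Arc, 0.19 for Nr4a1, 0.17 for Egr4 and 0.092 for Egr3. Without N/N male mouse 12 it was -0.20 for Nr4a2. Leaving out other mice moved the values away from 0. The log2 fold change was 0.51 for Egr2 and 0.36 for Arc without J/J male mouse 3. Without N/N female mouse 11 it was 0.34 for Egr1 and 0.42 for Nr4a1. Without N/N female mouse 13 it was 0.37 for Egr4 and 0.23 for Egr3. Without J/J female mouse 16 it was 0.53 for Nr4a3, and without J/J female mouse 7 -0.42 for Nr4a2.

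Egr1, the member of its family most used to mark active neurons, lies at 34859823 to 34864984 on chromosome 18 in GRCm38. It ran between 171.8 and 423.0 CPM in N/N mice, with a median of 293.2, and between 161.4 and 313.9 CPM in J/J mice, with a median of 237.4. In 6 of 8 N/N mice it was above the J/J median, and 3 of 8, all higher, lay outside the J/J range. The log2 fold change was 0.27 (SE 0.17, edgeR adjusted p = 0.732), a fold between 0.945 and 1.54 by its 95% interval. Egr2 (67535475 to 67542188 on chromosome 10), also known for its role in the myelinating cells of peripheral nerve, ran from 6.06 to 23.0 CPM in N/N mice (median 20) and from 5.43 to 25.2 CPM in J/J mice (median 13.1). The N/N values split into 6 mice at 15.9 CPM or more and 2 females at 8.37 and 6.06 CPM. Its log2 fold change was 0.36 (SE 0.27, edgeR adjusted p = 0.755).

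Egr3, which is needed for muscle spindle development, lies at 70077203 to 70082614 on chromosome 14. It had 38.7 to 75.4 CPM in N/N mice (median 60.7) and 43.0 to 62.0 CPM in J/J mice (median 55.3). In 7 of 8 N/N mice it was above the J/J median, yet its log2 fold change was the smallest positive one at 0.16 (SE 0.11, edgeR adjusted p = 0.746). Egr4, a further zinc finger factor of the family (85511121 to 85513589 on chromosome 6), had 12.6 to 34.0 CPM in N/N mice (median 25.7) and 13.1 to 31.0 CPM in J/J mice (median 19.7), a log2 fold change of 0.28 (SE 0.18, edgeR adjusted p = 0.739). The lowest and the highest of the 16 mice for Egr4 were both N/N females, mice 13 and 14.

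Nr4a1, also called Nur77 (101254269 to 101274795 on chromosome 15), is known to respond in striatum to drugs that act on dopamine receptors. It ran from 57.9 to 173.2 CPM in N/N mice (median 133.9) and from 59.9 to 155.0 CPM in J/J mice (median 99.6). The log2 fold change was 0.32 (SE 0.20, edgeR adjusted p = 0.738), and N/N mice gave both the lowest and the highest value. Nr4a3, also called Nor1 (48045153 to 48086447 on chromosome 4), had 2.25 to 9.62 CPM in N/N mice (median 7.21) and 2.92 to 8.22 CPM in J/J mice (median 5.20). It had the largest estimate of the set, a log2 fold change of 0.38 (SE 0.25, edgeR adjusted p = 0.739), with a 95% interval of the fold from 0.900 to 1.89. Nr4a2, or Nurr1 (57106830 to 57124003 on chromosome 2), is needed to form midbrain dopamine neurons and also marks neurons of the claustrum and deep cortex. It had 25.0 to 71.8 CPM in N/N mice (median 52.6) and 41.9 to 85.6 CPM in J/J mice (median 67.2), with only 2 of 8 N/N mice above the J/J median. Its log2 fold change of -0.34 (SE 0.20, edgeR adjusted p = 0.732) had the sign opposite to the rest of its family.

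Npas4, which shapes inhibitory synapses after activity, lies at 4984355 to 4990316 on chromosome 19. It had 30.8 to 79.3 CPM in N/N mice (median 49.1) and 39.8 to 79.4 CPM in J/J mice (median 53.1). The log2 fold change was -0.047 (SE 0.15, edgeR adjusted p = 0.950), the nearest to 0 of the 9, with a 95% interval of the fold from 0.776 to 1.21. Arc lies at 74669083 to 74672570 on chromosome 15 and ran from 124.1 to 353.4 CPM in N/N mice (median 276.9) and from 132.9 to 345.3 CPM in J/J mice (median 212.3). Its log2 fold change was 0.26 (SE 0.19, edgeR adjusted p = 0.753). In 6 of 8 N/N mice Arc was above the J/J median, and the ranges of the genotypes nearly coincided.

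**Figure D2:**
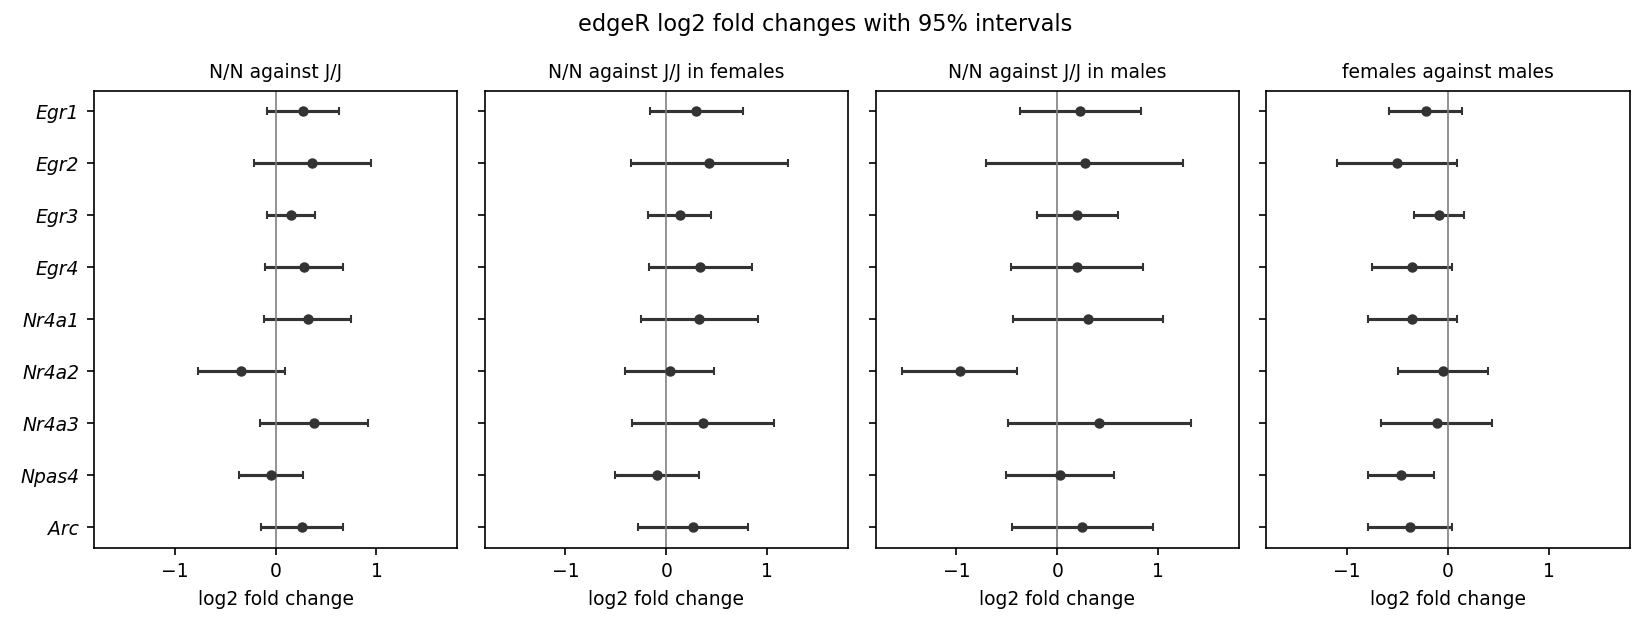
Log2 fold changes from edgeR (points) with 95% intervals (bars) for each gene, in 4 panels for N/N over J/J in all mice, in females and in males, and for females over males. All intervals cross 0 except that of Nr4a2 in males (-1.54 to -0.39) and that of Npas4 for females over males (-0.79 to -0.14), and neither passed the adjusted threshold.

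Within females 8 of the 9 genes had positive log2 fold changes for N/N over J/J (median 0.30), and within males 8 of the 9 (median 0.23). The gene with the negative sign was Npas4 in females (-0.093) and Nr4a2 in males. Single mice moved these values several-fold. In females without mouse 14 the log2 fold change was 0.079 for Egr1, 0.019 for Egr3, 0.12 for Nr4a1 and 0.052 for Arc. In females without N/N mouse 11 it was 0.42 for Egr1, 0.62 for Egr2, 0.49 for Nr4a1 and 0.42 for Arc. In males without J/J mouse 3 it was 0.67 for Egr2, 0.58 for Nr4a1 and 0.56 for Arc, and without J/J mouse 15 it was 0.065 for Egr2, 0.11 for Nr4a1 and 0.030 for Arc.

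Nr4a2 had 54.8, 43.8 and 25.0 CPM in N/N males and 85.6, 76.0 and 80.0 CPM in J/J males. The 3 N/N males were all below the 3 J/J males, and 20.6% of the 16113 genes tested likewise did not overlap in males, in either direction. The log2 fold change was -0.97 (SE 0.27), with an unadjusted edgeR p of 0.00271 and an adjusted p of 0.40. No gene of all those tested passed in males (0%, with 11.3% at an unadjusted p below 0.05), nor in females (0%, with 4.41%). DESeq2 called 4 genes in males, Nr4a2 not among them, and limma-voom 0, and edgeR called 8 in males without N/N female mouse 11. With the 6 males fitted alone edgeR called 242 genes, and Nr4a2, with a log2 fold change of -0.97, had an adjusted p of 0.136. In females Nr4a2 ran at 54.4, 50.8, 39.1, 71.8 and 69.7 CPM in N/N mice and at 69.8, 54.6, 41.9, 64.5 and 48.2 CPM in J/J mice, which overlapped throughout, with a log2 fold change of 0.033 (SE 0.21, edgeR adjusted p = 0.994). The female minus male difference of the genotype effect was 0.9995 for Nr4a2 (SE 0.34), with an unadjusted edgeR p of 0.00988 and an adjusted p of 0.692, and did not pass (0% of genes called, 6.94% at an unadjusted p below 0.05). Leaving out 1 mouse at a time moved the male estimate for Nr4a2 between -1.23 (without mouse 5) and -0.71 (without mouse 12).

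The Nr4a2 values in males came with other differences between the same punches. Myelin markers summed to 6238 to 8071 CPM in N/N males and 4728 to 5766 CPM in J/J males, with 12 of 12 genes above 0 on the log2 scale. Cortical markers summed to 917 to 1073 CPM in N/N males and 1379 to 1866 CPM in J/J males, with 11 of 12 genes below 0. With the mean myelin level as a term, an alternative chosen after the data were seen, the log2 fold change of Nr4a2 in males was -0.48 (edgeR adjusted p = 1), in place of -0.97, and the interaction 0.46 in place of 0.9995. Nr4a3 was the only other gene of the set whose male groups did not overlap, at 6.68, 7.29 and 7.15 CPM in N/N males and 6.34, 5.29 and 4.19 CPM in J/J males. The lowest N/N male exceeded the highest J/J male by less than the spread of the J/J males, and the log2 fold change of 0.42 (SE 0.42) had an edgeR adjusted p of 0.760.

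All 9 genes had lower means in females than in males, with log2 fold changes for females over males between -0.51 (Egr2) and -0.054 (Nr4a2) and a median of -0.36. These signs too are not separate observations, since most of the 9 varied together. None of the 9 genes passed the adjusted threshold, against 9 of the 16113 genes tested (0.0559%), and 1 of the 9 had an unadjusted p below 0.05, against 4.95% of all genes. DESeq2 and limma-voom also called 0 of the 9. That gene was Npas4, at 46.1 ± 9.77 CPM in females (SD, n = 10) and 63.6 ± 13.98 CPM in males (SD, n = 6). Npas4 ran from 30.8 to 61.3 CPM in females, with a median of 45.3, and from 46.6 to 79.4 CPM in males, with a median of 62.6, so the sexes overlapped. The log2 fold change was -0.47 (SE 0.15), with an unadjusted edgeR p of 0.00791 and an adjusted p of 0.942. Arc averaged 209.1 ± 67.1 CPM in females and 272.3 ± 62.5 CPM in males, a log2 fold change of -0.38 (SE 0.20, edgeR adjusted p = 0.942). Egr2 averaged 13.2 ± 6.05 CPM in females and 18.7 ± 5.02 CPM in males, a log2 fold change of -0.51 (SE 0.28, edgeR adjusted p = 0.942). The 4 mice with the lowest mean over the set were all females, and 2 of them were the mice with the shared cage label. Without those 2 mice the value was -0.32 for Egr2, -0.41 for Npas4 and 0.060 for Nr4a3, in place of -0.11 for Nr4a3.

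Most genes of the set went up and down together from mouse to mouse, and Nr4a2 did not follow them. Of the 36 pairs, 22 had a Pearson correlation of log2 CPM past an adjusted permutation p of 0.05, and 24 did by Spearman's rho. The share of pairs among all tested genes that would pass is not given here, so these counts cannot be set against it. The median r was 0.65 over the 36 pairs, 0.78 over the 28 pairs without Nr4a2 and -0.015 over the 8 pairs with it. The p-values came from 100000 permutations of the mice, with 1e-05 the smallest value possible, and were adjusted over the 36 pairs. Genes of the set share each mouse's library and its scaling, and 22 pairs also passed on residuals after genotype and sex (median r 0.63).

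**Figure D3:**
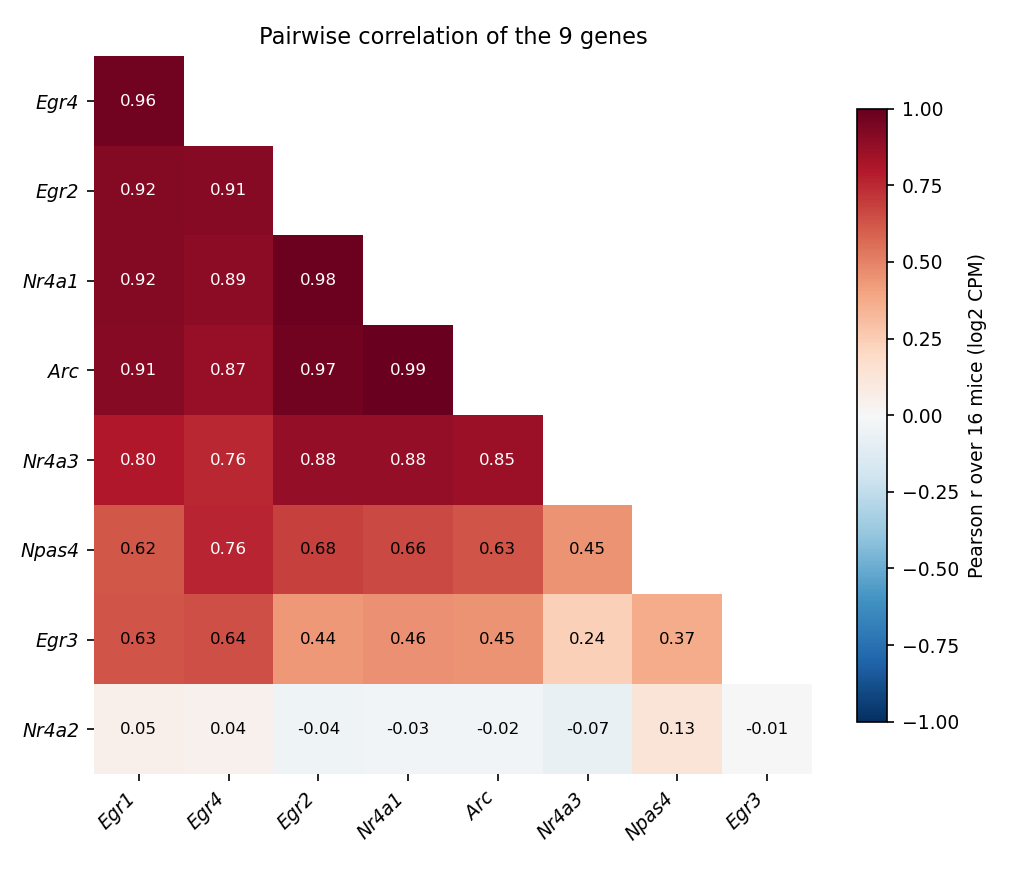
Pearson r of log2 CPM over the 16 mice for each pair of genes, coloured from blue (-1) to red (1) with the value printed. Egr1, Egr2, Egr4, Nr4a1, Nr4a3 and Arc form a block with r between 0.76 and 0.99, and the bottom row, Nr4a2, stays between -0.07 and 0.13.

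Nr4a1 and Arc, a nuclear receptor and a synaptic protein on the same chromosome but far apart, tracked each other most closely, with r = 0.99 and rho = 0.98 (permutation p = 1e-05, adjusted p = 3.27e-05). Without the 2 mice farthest from the median of Nr4a1 r was 0.98, and it was 0.99 within N/N mice and 0.99 within J/J mice. Across the 16 mice Nr4a1 ran from 57.9 CPM beside 124.1 CPM of Arc, in mouse 11, to 173.2 CPM beside 353.4 CPM of Arc, in mouse 14. Egr2 followed both, with r = 0.98 to Nr4a1 (rho 0.98) and 0.97 to Arc (rho 0.94), each with an adjusted permutation p of 3.27e-05. Without the 2 farthest mice these were 0.96 and 0.95. Egr1 and Egr4 were each other's nearest gene, with r = 0.96 (rho 0.96, adjusted permutation p = 3.27e-05), and 0.95 without the 2 farthest mice. Nr4a3 had r = 0.88 with Egr2 and with Nr4a1, 0.85 with Arc, 0.80 with Egr1 and 0.76 with Egr4. All 15 pairs within these 6 genes passed, with adjusted permutation p-values of at most 0.00146 for r and 0.00394 for rho, and rho lay between 0.74 and 0.98. Without the 2 farthest mice of each pair r lay between 0.72 and 0.98.

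Npas4 followed the same 6 genes less tightly. Its r was 0.76 with Egr4 (rho 0.66, adjusted permutation p = 0.00205), 0.68 with Egr2, 0.66 with Nr4a1, 0.63 with Arc and 0.62 with Egr1, and these 5 pairs passed, with adjusted permutation p-values of at most 0.0180. Their rho lay between 0.57 and 0.66 (adjusted permutation p at most 0.0348), and r without the 2 farthest mice between 0.54 and 0.74. With Nr4a3 it was 0.45 (permutation p = 0.0832, adjusted 0.120) and with Egr3 0.37 (permutation p = 0.159, adjusted 0.212). Mouse 14, highest of all for Egr1, Egr4, Nr4a1 and Arc, had 49.7 CPM of Npas4, below the all-mouse mean of 52.6 CPM. Mice 3 and 5 had the highest Npas4, at 79.4 and 79.3 CPM.

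By Pearson's r Egr3 passed only with its relatives Egr1 (r = 0.63, rho 0.70, adjusted permutation p = 0.0149) and Egr4 (r = 0.64, rho 0.70, adjusted permutation p = 0.0133). By Spearman's rho it also passed with Egr2 (rho 0.57, adjusted permutation p = 0.0341) and Nr4a1 (rho 0.60, adjusted permutation p = 0.0283). With the other genes of the block its r lay between 0.24 (Nr4a3) and 0.46 (Nr4a1). Mice 10 and 11, lowest for most of the set, had 59.6 and 58.9 CPM of Egr3, above its all-mouse mean of 57.1 CPM. Leaving out the 2 mice farthest from the median of Egr2 took the r of Egr2 and Egr3 to 0.78, in place of 0.44. Within N/N mice the r of Egr3 with the 7 genes other than Nr4a2 lay between 0.38 and 0.85, and within J/J mice between -0.26 and 0.15, and this difference was not tested.

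Nr4a2 showed no relation to any of the other 8 genes that passed, with r between -0.075 and 0.13 and a smallest permutation p of 0.632. The rest of its own family was no nearer, at -0.029 for Nr4a1 and -0.075 for Nr4a3. Mouse 12 had the lowest Nr4a2 of the 16 mice, 25.0 CPM, while its Egr2, Nr4a1 and Arc were above their all-mouse means. Mouse 13 had the highest Nr4a2 of the N/N mice, 71.8 CPM, while it was the lowest of all mice for Egr3, Egr4 and Npas4.

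**Figure D4:**
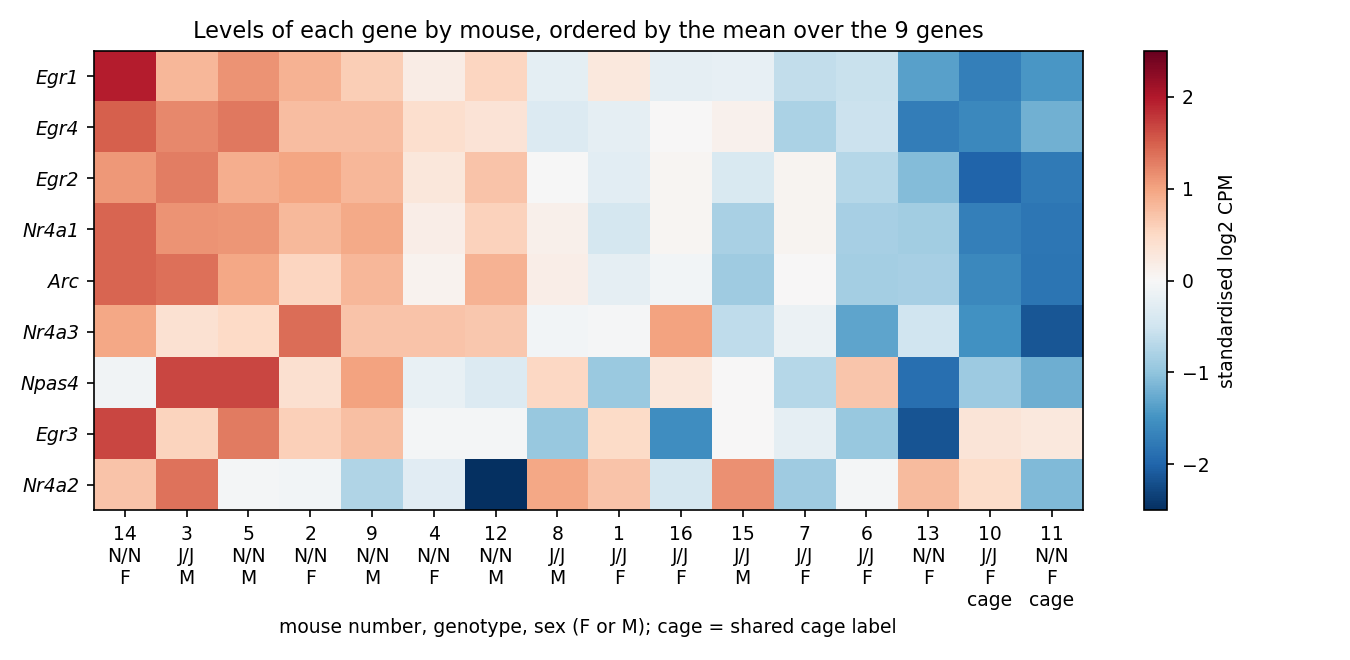
Standardised log2 CPM of each gene (rows; red above and blue below its mean over mice) in the 16 mice, ordered from the highest to the lowest mean over the 9 genes, with genotype and sex under each column. The top 7 rows change together from left to right, Egr3 less so, and Nr4a2 does not follow the order.

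Averaged over the 9 genes after standardising each to its mean and SD over mice, the highest mice were 14 (N/N female, mean z of 1.19), 3 (J/J male, 1.09) and 5 (N/N male, 0.98). The lowest were 11 (N/N female, -1.37), 10 (J/J female, -1.14) and 13 (N/N female, -1.06). Both genotypes were thus at both ends of the order. Mice 3 and 5 had all 9 genes above the median of the gene, and mouse 11 had 1. The 2 mice with the shared cage label were the 2 lowest of 16, which was noticed after the values were seen, rests on 1 pair and was not tested. Without both of them 22 of 36 pairs passed and the median r was 0.71.

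The levels were then set beside cortical, medium spiny neuron and myelin marker levels, 27 relations in all with p-values adjusted over them. The 1 relation that passed was that of Nr4a2 to myelin markers, with r = -0.81 and rho = -0.88 (permutation p = 0.00011, adjusted 0.00297). It was -0.79 without the 2 mice farthest from the median, -0.81 within N/N mice and -0.75 within J/J mice. The share of all tested genes with a like r to the myelin level is not given here. The relation can therefore not be called particular to Nr4a2. Nr4a2 also had r = 0.55 with cortical markers (permutation p = 0.0335, adjusted 0.301) and rho = 0.66 (adjusted permutation p = 0.0551). Egr3 had r = 0.68 and rho = 0.68 with medium spiny neuron markers (permutation p = 0.00392, adjusted 0.0529 for r and 0.0551 for rho), and 0.57 without the 2 farthest mice, which did not pass. This relation passed on residuals after genotype and sex (r = 0.70, adjusted permutation p = 0.0325), without mouse 3 (r = 0.76, adjusted permutation p = 0.0166) and without mouse 11 (r = 0.71, adjusted permutation p = 0.0351). The other 7 genes had r between -0.17 and 0.36 with the 3 marker levels, the highest being Nr4a3 with cortical markers (rho -0.029). Without the 2 mice farthest from the median cortical level, r of these 7 genes with it ran from -0.084 (Nr4a3) to 0.018 (Egr4). Within 1 genotype the values of the 7 genes were wider. With cortical markers r ran from 0.39 (Nr4a3) to 0.76 (Npas4) in J/J mice and from 0.023 (Npas4) to 0.63 (Nr4a3) in N/N mice. With medium spiny neuron markers it ran from -0.75 (Npas4) to -0.38 (Egr1) in J/J mice. In N/N mice it ran from -0.20 (Nr4a3) to 0.46 (Npas4). The values within a genotype were not tested. The part of the punches' makeup in these relations was not tested.

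**Figure D5:**
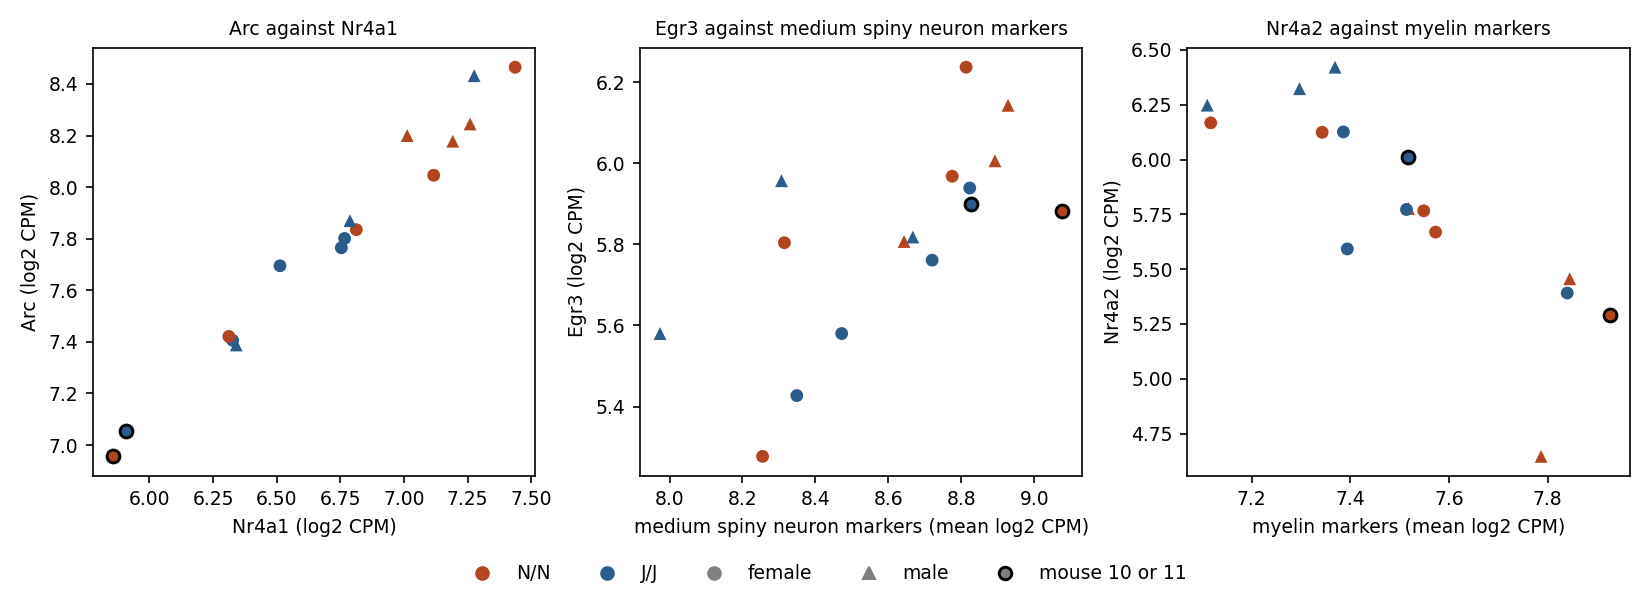
Log2 CPM of Arc against Nr4a1 (left), of Egr3 against the mean log2 CPM of medium spiny neuron markers (middle) and of Nr4a2 against that of myelin markers (right) in the 16 mice, N/N red and J/J blue, circles for females and triangles for males. Arc and Nr4a1 lie close to 1 line (r = 0.99), Egr3 scatters upwards (r = 0.68) and Nr4a2 downwards (r = -0.81).

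Other genes with the same pattern over mice were sought among 13311 genes with a mean log2 CPM of at least 1, by their r with the mean of the 9 standardised levels, given as a description. The median over those genes was 0.0072, and 30 of them, members included, reached 0.8. The 10 genes outside the set with the highest r were Junb (0.93), Dusp6 (0.93), Dusp5 (0.91), Dusp14 (0.90), Fosb (0.89), Trib1 (0.88), Dusp1 (0.88), Slc25a25 (0.87), Midn (0.85) and Sertad1 (0.84). Junb and Fosb are AP-1 transcription factors, and the Dusp genes encode dual specificity phosphatases, of which Dusp1, Dusp5 and Dusp6 switch MAP kinases off. The 5 with the lowest r were Tpmt (-0.86), Tmem81 (-0.83), Fcho2 (-0.81), Kctd9 (-0.81) and Slx1b (-0.80).

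Taken gene by gene, the nearest partner of Egr2 was Nr4a1, that of Nr4a1 was Arc, and those of Egr1 and Egr4 were each other. Nr4a3 was nearest to Fosl2, an AP-1 gene (r = 0.92), and Npas4 to Junb (r = 0.80). Egr3 was nearest to Zbtb21, a zinc finger gene (r = 0.91), with Cry1, a repressor of the circadian clock, next (r = 0.90), and its best partner within the set stood at rank 649. Nr4a2 was nearest to Ntng2, which encodes netrin-G2 (r = 0.96), with Cbln1, a synapse organiser, next (r = 0.96), and its best partner within the set stood at rank 4749. Of the other 8 genes, Egr4 had 6 among its 100 nearest, Egr1, Egr2, Nr4a1, Nr4a3 and Arc had 5 each, Npas4 had 3, and Egr3 and Nr4a2 had 0.

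The wider pathway was described with lists of other AP-1 genes, other activity-induced genes, upstream kinases and factors, and partners of the 9 proteins. These lists were chosen with earlier results of these data known. The shares below therefore describe the lists and are not an independent test. All 6 tested AP-1 genes had r of at least 0.5 with the mean of the set (median 0.82), from 0.59 for Jun to 0.93 for Junb. So had 25 of 38 other activity-induced genes (median 0.61), against 9.99% of all 13311 genes. Of 22 upstream genes 3 reached it, the highest being Map2k1, a MAP kinase kinase (0.77), and of 11 partner genes 1 did, Nab2, a corepressor that binds Egr proteins (0.72). Of the cell type markers 1 of 12 cortical genes reached 0.5 (Lamp5, 0.54), and none of the 14 medium spiny neuron or the 12 myelin markers did. Of 8 microglia markers 3 had r of -0.5 or below, P2ry12 (-0.68), C1qb (-0.58) and C1qa (-0.50), with a list median of -0.40, against 5.89% of all 13311 genes. The 8 astrocyte markers had a median r of -0.27. The 8 endothelial markers had a median r of -0.067 and ran from -0.53 (Slco1a4) to 0.465 (Kdr). The part of these cells in the pattern was not tested.

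In the test of N/N against J/J no gene of these lists passed. Fosl1, with 38 reads in all, was not tested, and the other 6 AP-1 genes all had positive log2 fold changes (median 0.24). Fosl2 had 0.40 (SE 0.19), Fosb 0.30 (SE 0.13), Fos 0.28 (SE 0.23), Junb 0.21 (SE 0.15), Jun 0.067 (SE 0.096) and Jund 0.035 (SE 0.058), with the smallest edgeR adjusted p at 0.712. Of 39 other activity-induced genes 32 had positive values (median 0.13) and 0 passed. The 3 with the smallest p were Rgs2, a brake on G protein signalling, at 0.29 (SE 0.12), Sik1, a CREB-induced kinase, at 0.31 (SE 0.13), and Gadd45g at 0.20 (SE 0.089). Of 22 upstream genes 14 were positive (median 0.018) and 0 passed, and those with the smallest p were Srf at 0.14 (SE 0.047), Mef2c, an activity-regulated factor of neurons and muscle, at -0.30 (SE 0.12) and Elk1, an SRF cofactor, at -0.067 (SE 0.037). Of 11 partner genes 8 were positive (median 0.046) and 0 passed, led by Nab2 at 0.15 (SE 0.064), Rxra, which pairs with Nr4a1 and Nr4a2, at 0.10 (SE 0.047) and Dnm2, an endocytic GTPase that binds Arc, at 0.10 (SE 0.047). For females over males 6 of 6 AP-1 genes and 34 of 39 other activity-induced genes had negative values, and 0 passed.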

How the data were processed

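Stranded mRNA libraries were read as 50 bp single reads in 4 runs each, per the labels' protocols. The deposited files hold raw read counts per gene, which the authors made with TopHat2 2.1.0 on mm10 and HTSeq 0.6.1p1, per the submitters' processing notes. Which annotation release was counted, and with which strand setting, is not given in the sources used here. GENCODE M21 places no annotated gene over any of the 9.

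The 4 runs of a mouse were added up to 1 library for each of the 16 mice. The 5 summary rows that name no gene were left out of library sizes and tests. They held 19.95% of reads in no gene, 21.84% not aligned uniquely and 0.78% ambiguous. CPM are reads per 1000000 gene reads after TMM scaling (factors 0.970 to 1.025), and log2 CPM have a prior count of 2.

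Tests used edgeR 4.0.16 in R 4.3.3 on 16113 genes that passed filterByExpr (minimum count 10, minimum total 15), with the robust quasi-likelihood F test and Benjamini-Hochberg adjustment over all of them at 0.05. Genotype and sex were fitted together, and effects within a sex and the interaction in a model of 4 genotype and sex groups. The tests were checked on simulated counts. Correlations used 100000 permutations of mice, 2-sided. Sequences were RefSeq promoters of GRCm38.p6, the assembly of mm10.

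Named genes outside the set were the 10 highest and 5 lowest by likeness, the nearest gene of each member, every AP-1 gene and the 3 smallest p-values of the other lists. Second-nearest genes and single cell type markers were named after their values were seen. Members and lists were chosen with earlier results of these data known. Alternatives were RLE factors, library size only, no low-count filter, DESeq2 1.42.0, limma-voom (limma 3.58.1), a fit that was not robust, marker levels as terms, 1 sex alone, a prior count of 0.5 and leaving out each mouse.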

Additional observations from a re-analysis of the deposited data

Results flagged for a closer look

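Egr2 in J/J male mouse 3 stood apart from its group at 25.2 CPM, where the other 7 J/J mice ran from 5.43 to 14.4 CPM. Its gap to the next mouse was 0.548 of the group's whole range, above Dixon's 95% critical value for 8 samples. It was the 1 result marked in 18 groups of 8 (9 genes in each genotype), and chance marks about 1 group in 20. The same mouse had the highest J/J level of Egr1, Egr3, Egr4, Nr4a1, Nr4a2, Npas4 and Arc.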

How the results depend on the processing

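None of the 9 genes passed the adjusted threshold in any comparison under any alternative run. The log2 fold changes for N/N over J/J kept their sign in every alternative run for 8 of the 9 genes, though not their size, as given for single mice and the marker terms. The exception was Npas4, which was 0.0027 with the cortical level as a term and -0.11 to 0.019 when single mice were left out. Counts over all genes moved more. In males 4 genes passed with DESeq2, 242 with males fitted alone, 38 without the 2 mice of the shared cage label and 0 to 8 when single mice were left out (8 without mouse 11). For the interaction 1 passed without the low-count filter, 1 with DESeq2, 16 without the 2 cage mates and 0 to 66 when single mice were left out (66 without mouse 11, 1 without mouse 5). The cause was not tested.

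Signs near 0 turned in these cases. With limma-voom the interaction was -0.0049 for Egr1, -0.0087 for Egr2, -0.10 for Nr4a1 and -0.11 for Arc. With the myelin level as a term it was -0.13 for Egr1, 0.050 for Egr3, -0.14 for Nr4a1 and -0.16 for Arc, and Nr4a2 in females was -0.020. Without the 2 cage mates the interaction was 0.017 for Nr4a3, and females over males 0.060. When single mice were left out, the interaction ran from -0.29 to 0.24 for Arc, -0.15 to 0.20 for Egr1, -0.25 to 0.36 for Egr2, -0.18 to 0.046 for Egr3, -0.081 to 0.29 for Egr4, -0.32 to 0.060 for Npas4, -0.25 to 0.22 for Nr4a1 and -0.25 to 0.19 for Nr4a3. In females Npas4 ran from -0.19 to 0.018 and Nr4a2 from -0.062 to 0.14, in males Npas4 from -0.15 to 0.23, and females over males for Nr4a2 from -0.22 to 0.029.

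The pairs that passed numbered 19 to 25 of 36 in every alternative run. Marker relations that passed were 1 or 2 when single mice were left out (2 without mouse 3 or 11) and 2 on residuals after genotype and sex, the second in each case being Egr3 with medium spiny neuron markers. No paired analysis was possible because the groups share no replicate numbers. The design limits what can be seen: with 8 mice a genotype and a spread of 16.7% to 40.4%, 95% intervals of the fold reached 1.89 for Nr4a3 and 1.93 for Egr2, and males rest on 3 mice a genotype.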
